A study of Arabidopsis thaliana with 6 samples.

Results

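The late embryogenesis abundant (LEA) genes described here are 4 genes of Arabidopsis thaliana, LEA4-5, AtLEA4-1, LEA18 and AT3G17520. They were picked by name from earlier results of the same comparison, in which all were lower in the TOC1 overexpressor, so their differences between the groups are given as a description, with no test. Each of the 4 genes had 1 single-gene probe set among the 13356 genes that could be named on the array, and all 4 are reported, with no filter on low values.

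Transcripts were measured on 6 Affymetrix arrays, 3 of TOC1 overexpressor seedlings (TOC1-ox) and 3 of wild-type seedlings (WT), each described by the series as biological replicates. Both groups were of the ecotype Col0, were 12 days old, had grown on MS3 medium with 12 h of light and 12 h of darkness a day, and were harvested at zeitgeber time 15, in the dark part of the cycle. TOC1 is a clock protein of the evening, a repressor in the circadian oscillator of plants, and the study set out to learn which genes respond to its excess. The labels do not state the promoter of the TOC1 transgene or how many lines were used, and the level of TOC1 itself is not analysed here.

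LEA proteins are small, very hydrophilic and largely unstructured in dilute solution. They accumulate late in seed maturation, as the embryo dries, and many are made again in vegetative tissue under drought, cold, salt or abscisic acid (ABA), where they are thought to protect proteins and membranes from water loss. In seedlings without stress most seed-type LEA transcripts are known to be scarce.

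The deposited values are on a log2 scale, so that a difference of 1 is a doubling, and 22746 probe sets were compared. Values under 4 are dim: 36.5% of all values lay there, the processing draws such probe sets together, and the size of a change into that range is not well defined. Probe sets differ in how well they bind, so levels are compared between arrays within a gene and not between genes. Of the green-tissue markers listed to check the tissue, 3 of 12 could be measured (LHCB4.1, RCA and PRK), with log2 values of 12.59 to 14.67 on every array. The only measured root marker of 7, the expansin gene EXPA7, had 6.31 to 6.78 in TOC1-ox and 5.45 to 5.95 in WT. Both arrays numbered 3 stood apart in the bacterial transcripts spiked in to control the labelling. The median over 24 such probe sets was 7.01 in TOC1-ox replicate 3 and 7.59 in WT replicate 3, against 2.81 to 4.84 on the other arrays. Results are therefore also given without those arrays.

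All 4 LEA transcripts were lower in TOC1-ox seedlings, and at each of them every TOC1-ox value lay below every WT value. Over all 22746 probe sets, 10.8% showed this lack of overlap in the same direction. Nothing is read from the count of 4, because the genes were chosen on this contrast. The log2 differences, TOC1-ox minus WT, ran from -4.78 for AT3G17520 to -2.88 for LEA4-5, with a median of -3.66, while the median over all probe sets was -0.02. Ordered from the most negative difference of all probe sets, AT3G17520 was number 6, AtLEA4-1 number 28, LEA18 number 33 and LEA4-5 number 60.

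LEA4-5, AtLEA4-1 and LEA18 form the LEA_1 family of Arabidopsis, also called group 4. LEA18 is listed under the further name LEA4-2. Proteins of this group are known for protecting enzymes during drying in the test tube and for a part in tolerance of severe water deficit in the plant.

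LEA4-5 (locus AT5G06760) had log2 values of 5.45, 5.30 and 5.46 in TOC1-ox replicates 1 to 3, against 6.59, 8.74 and 9.52 in WT replicates 1 to 3. The TOC1-ox arrays lay almost on one level, whereas the WT arrays were far apart, with replicate 1 low. The group values were 5.40 ± 0.09 in TOC1-ox and 8.28 ± 1.52 in WT (SD, n = 3 each), a difference of -2.88 or 7.37-fold lower. It was -3.73 without WT replicate 1 and -2.26 without WT replicate 3. The highest TOC1-ox value was 1.13 below the lowest WT value, the narrowest gap of the 4 genes.

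AtLEA4-1 (AT1G32560) had 5.08, 4.14 and 2.79 in TOC1-ox, against 7.37, 6.84 and 8.99 in WT. Here both groups were spread out: TOC1-ox replicate 3 was the lowest array and WT replicate 3 the highest. The group values were 4.0 ± 1.15 in TOC1-ox and 7.73 ± 1.12 in WT (SD, n = 3 each), a difference of -3.73 or 13.3-fold lower. One of the TOC1-ox arrays lay under 4, so that part of this size is not well defined. The difference was -3.10 without WT replicate 3 and -3.12 without TOC1-ox replicate 3.

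LEA18 (AT2G35300) had 6.49, 5.78 and 2.85 in TOC1-ox, against 8.36, 8.50 and 9.02 in WT. The WT arrays were close together, and the spread lay in TOC1-ox, where replicate 3 was far below replicates 1 and 2. The group values were 5.04 ± 1.93 in TOC1-ox and 8.63 ± 0.35 in WT (SD, n = 3 each), a difference of -3.58 or 12.0-fold lower. TOC1-ox replicate 3 lay under 4, and without it the difference was -2.49, against -4.31 without TOC1-ox replicate 1.

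AT3G17520 is a gene of the LEA_4 family, the large LEA group that also holds the cold-regulated COR15A and COR15B. It had 3.48, 2.60 and 2.21 in TOC1-ox, against 6.48, 7.82 and 8.33 in WT. All 3 TOC1-ox arrays were dim, under 4, and all 3 WT arrays were well above that level. The group values were 2.76 ± 0.65 in TOC1-ox and 7.55 ± 0.95 in WT (SD, n = 3 each), a difference of -4.78. A fold computed from it (27.5) rests on TOC1-ox levels near the bottom of the scale. The gap between the highest TOC1-ox and the lowest WT value, 3.00, was the widest of the 4 genes.

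**Figure D1:**
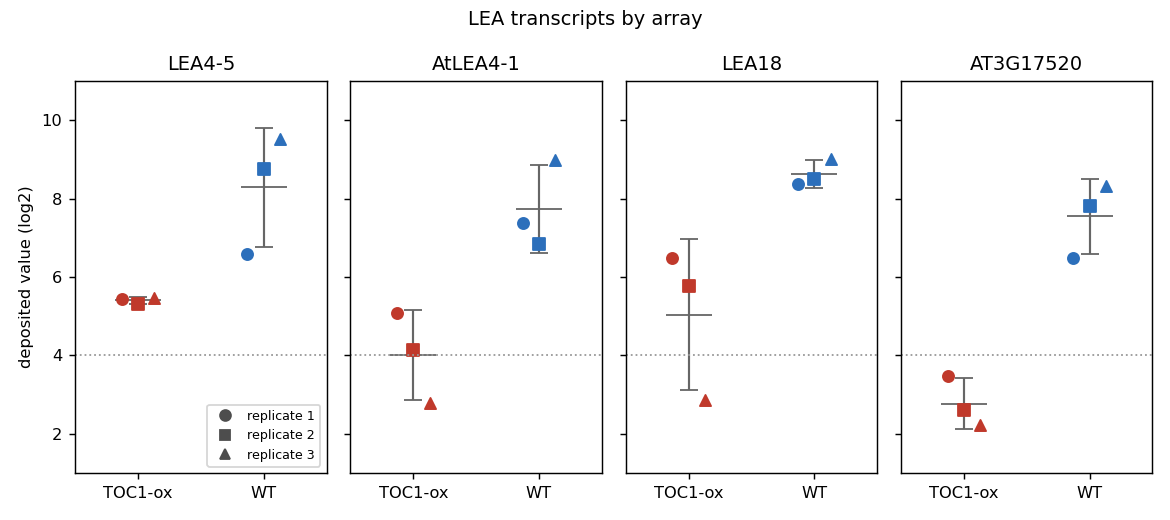
Deposited log2 values (vertical axis) of the 4 LEA genes, 1 panel per gene, in TOC1-ox and WT arrays. Symbols mark the replicate number, bars the mean and SD of 3 arrays, and the dotted line the level of 4 under which values are dim. Each gene's TOC1-ox values lie below its WT values, the WT arrays are widest apart in LEA4-5 and closest in LEA18, and replicate 3 is the highest WT array in every panel.

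The spread between the WT arrays differed from gene to gene. The SD over the 3 WT arrays was 1.52 for LEA4-5, 1.12 for AtLEA4-1, 0.95 for AT3G17520 and 0.35 for LEA18, with a median of 1.04, against a median of 0.15 over all probe sets. The WT arrays of LEA4-5 spanned 2.93 on the log2 scale, or 7.62-fold, those of AtLEA4-1 2.15 (4.42-fold), those of AT3G17520 1.85 (3.60-fold) and those of LEA18 0.66 (1.58-fold). For LEA4-5 the WT span was thus wider than the mean TOC1-ox minus WT difference of -2.88 is deep, while for LEA18 it was a small part of its difference of -3.58.

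Because spread depends on level, each WT SD was also set beside the probe sets with a WT mean within 0.5 of that gene's. The WT SD of LEA4-5 was higher than that of 99.9% of 2805 such probe sets, that of AtLEA4-1 higher than 99.6% of 2933, and that of AT3G17520 higher than 99.1% of 2910. LEA18 was higher than 80.2% of 2590. The median SD in these neighbourhoods was 0.21 to 0.22. The first 3 genes therefore varied between WT arrays more than nearly every transcript of like level, and LEA18 did so less clearly.

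**Figure D2:**
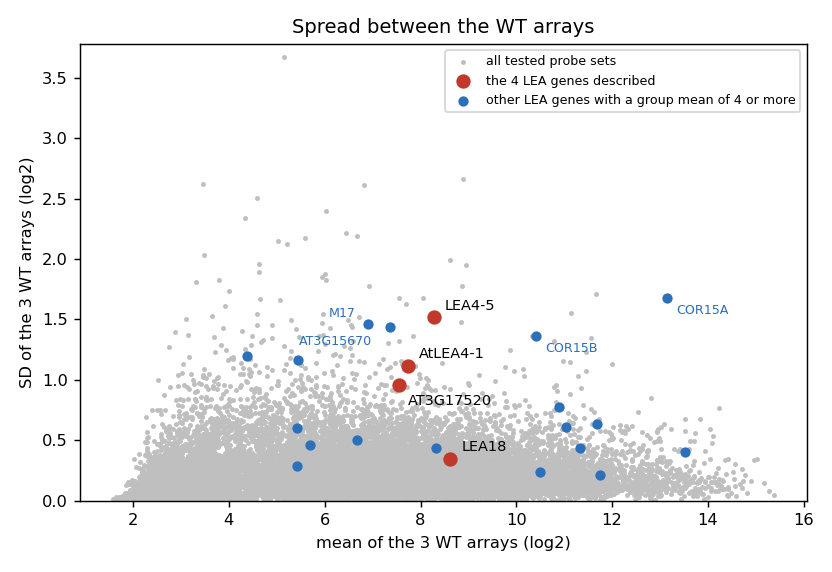
SD of the 3 WT arrays (vertical axis, log2) against their mean (horizontal axis, log2) for all 22746 tested probe sets in grey, with the 4 LEA genes in red and other LEA genes that reached a mean of 4 in a group in blue. LEA4-5, AtLEA4-1 and AT3G17520 stand above the bulk of probe sets of their level, and LEA18, at 0.35, lies near it.

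The WT array farthest from the others was not the same one in each gene. With 3 arrays, leaving out 1 shows only which array this is, and not that it is an outlier. In LEA4-5 the farthest array was WT replicate 1. The SD was 0.55 without it, 2.07 without WT replicate 2 and 1.53 without WT replicate 3. AT3G17520 had the same pattern, with 0.36 without WT replicate 1, 1.31 without WT replicate 2 and 0.95 without WT replicate 3. In AtLEA4-1 the farthest array was WT replicate 3. The SD was 0.37 without it, against 1.52 without WT replicate 1 and 1.14 without WT replicate 2. LEA18 had 0.10 without WT replicate 3, 0.47 without WT replicate 2 and 0.37 without WT replicate 1.

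WT replicate 3 was the highest WT array in 4 of the 4 genes, and it was the highest at 26.3% and the lowest at 54.8% of all probe sets. WT replicate 1 was the lowest WT array in LEA4-5, LEA18 and AT3G17520, and WT replicate 2 in AtLEA4-1. WT replicate 3 exceeded the mean of WT replicates 1 and 2 by 1.85 in LEA4-5, 1.88 in AtLEA4-1, 0.59 in LEA18 and 1.18 in AT3G17520.

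In TOC1-ox the order was another one. TOC1-ox replicate 3 was the lowest TOC1-ox array in AtLEA4-1, LEA18 and AT3G17520, and it was the lowest at 35.5% of all probe sets. This was not particular to these genes: of the 18 other LEA genes with a mean of 4 or more in a group, 15 had TOC1-ox replicate 3 lowest. TOC1-ox replicate 3 lay below the mean of TOC1-ox replicates 1 and 2 by a log2 difference of -1.82 in AtLEA4-1, -3.28 in LEA18 and -0.83 in AT3G17520. In LEA4-5 it differed from that mean by 0.08. The SD over the TOC1-ox arrays was 0.09 for LEA4-5, lower than in most probe sets of like level (it exceeded 10.5% of 1516). That of AtLEA4-1 exceeded 93.6% of 1066 and that of LEA18 98.3% of 1341. The TOC1-ox SD of AT3G17520, 0.65, exceeded 98.3% of 3979, but those probe sets are dim, with a median SD of 0.01. LEA4-5 and LEA18 thus differed in where the spread lay. LEA4-5 varied in WT and hardly in TOC1-ox. LEA18 varied most in TOC1-ox, through replicate 3, and its smaller WT SD still exceeded that of 80.2% of probe sets of like level.

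The differences of all 4 genes were larger between the arrays numbered 3, which the spike-ins set apart, than among the others. Among the arrays numbered 1 and 2 alone, the TOC1-ox minus WT difference was -2.29 for LEA4-5, -2.50 for AtLEA4-1, -2.29 for LEA18 and -4.11 for AT3G17520. Between the arrays numbered 3, 1 per group, it was -4.06 for LEA4-5, -6.19 for AtLEA4-1, -6.17 for LEA18 and -6.12 for AT3G17520. The median over the 4 genes was -2.40 among the arrays numbered 1 and 2 and -6.14 between those numbered 3. Whether the labelling had a part in this was not tested.

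The rest of the LEA family was read from a list of the 51 LEA genes of Arabidopsis by protein family. It was drawn up with earlier results of these data known. Single-gene probe sets were found for 35 of them, the 4 genes above and 31 others. Of the 31 others, 13 had a mean under 4 in both groups and 18 reached 4 in at least 1 group. Of the 31 others, 2 passed the test as lower in TOC1-ox (6.45%; limma, adjusted p under 0.05 over all probe sets), against 0.703% of all probe sets. None passed as higher, against 1.08% of all probe sets; at an unadjusted p under 0.05 by limma, 10 were lower and 1 higher, against 8.32% and 8.05% of all probe sets. No overlap with lower TOC1-ox values was found in 14 of the 31 (45.2%), against 10.8% over all probe sets. Of these 14, 10 were among the 18 that reached 4 in a group. The rest were dim in both groups, with gaps between the groups of only 0.007 to 0.076. In 9 of the 31 (29%) the lack of overlap came with a mean difference of log2 2 or more, against 0.642% over all probe sets. The median difference over the 31 was -0.13.

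**Figure D3:**
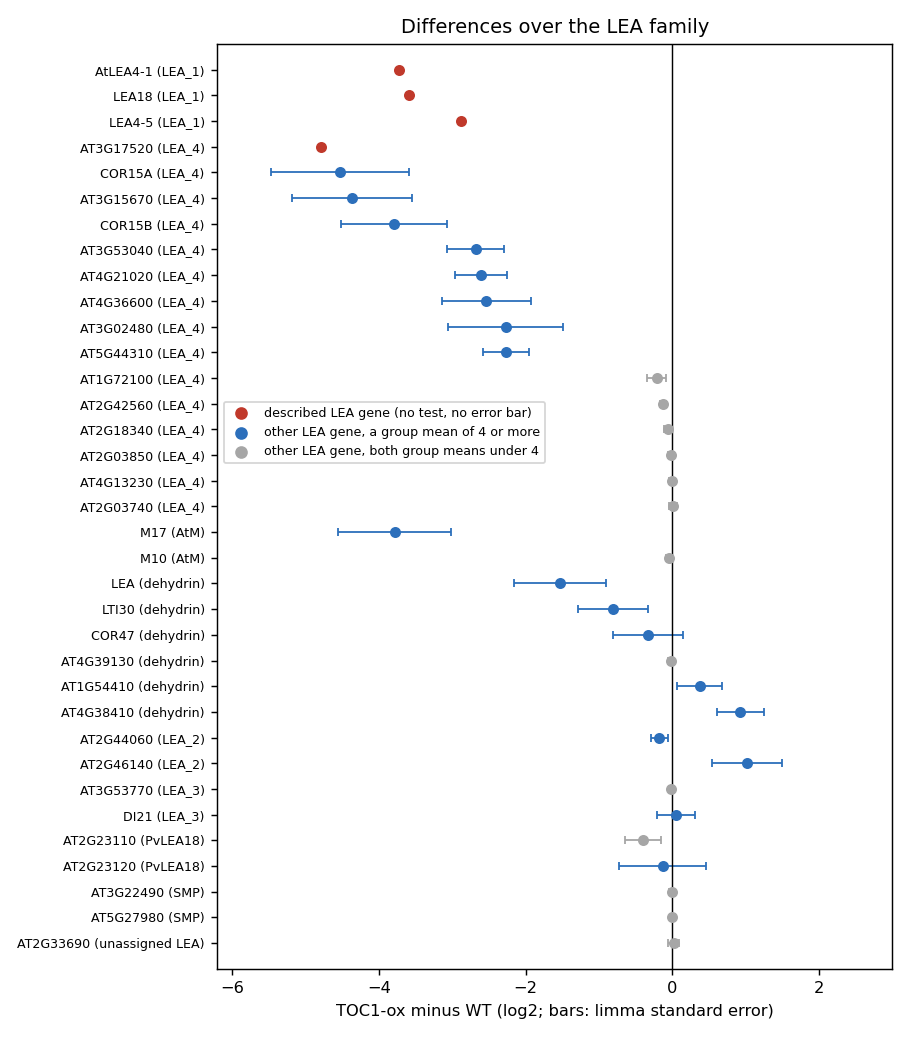
TOC1-ox minus WT difference (horizontal axis, log2) of the 35 measured LEA genes, grouped by protein family, with limma's standard error for the 31 that were not chosen on this contrast. The lowest differences lie in the LEA_1 and LEA_4 families and at M17, and genes dim in both groups sit close to 0.

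The 2 genes that passed the test were AT4G21020 and AT5G44310, both of the LEA_4 family to which AT3G17520 belongs. Their proteins are known from mitochondria and plastids. AT4G21020 had 4.42, 4.25 and 3.51 in TOC1-ox, against 6.26, 7.23 and 6.51 in WT, a log2 difference of -2.61 ± 0.36 (standard error, n = 3 each; limma, adjusted p = 0.0476). AT5G44310 had 3.17, 3.18 and 3.10 in TOC1-ox, against 4.89, 5.29 and 6.08 in WT, a difference of -2.27 ± 0.31 (limma, adjusted p = 0.0476), and its TOC1-ox values were dim. Both p-values lay close to the threshold. Without WT replicate 1, WT replicate 2, TOC1-ox replicate 1 or TOC1-ox replicate 2, neither passed, and without WT replicate 3 only AT5G44310 did. Without TOC1-ox replicate 3 both passed, and so did AT3G53040 as lower and AT2G46140 and AT4G38410 as higher. With the arrays numbered 1 and 2 only, AT4G21020 did not pass (limma, adjusted p = 0.0849). There AT5G44310, COR15A, COR15B and AT4G36600 passed as lower (limma, adjusted p = 0.037, 0.0403, 0.0332 and 0.0166), among 2201 of 22746 probe sets called. A filter at a mean of 6 left out AT4G21020 and AT5G44310, and there COR15A and COR15B passed, among 641 of 11802 probe sets.

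Other LEA_4 genes had wide gaps between the groups and did not pass with all 6 arrays at the default settings. AT3G53040 differed by -2.68 ± 0.39 (limma, adjusted p = 0.0516). AT3G15670 had 3.49, 3.24 and 2.22 in TOC1-ox, against 6.08, 7.07 and 8.91 in WT, a difference of -4.37 ± 0.82 (limma, adjusted p = 0.0808). AT4G36600 differed by -2.53 and AT3G02480 by -2.27 (limma, adjusted p = 0.13 and 0.256). The WT arrays of AT3G15670, AT4G36600 and AT3G02480 had SDs of 1.44, 1.16 and 0.77, higher than 99.8%, 98.8% and 98.5% of probe sets of like level, and WT replicate 3 was the highest WT array in each, as in the 4 genes. Of the 14 measured LEA_4 genes besides AT3G17520, 11 had no overlap with TOC1-ox lower (10.8% over all probe sets), and 6 were dim in both groups. In 8 of the 11 the mean difference was log2 2 or more (0.642% over all probe sets). The rest of the 11 were among the dim genes and differed by -0.21 to -0.07.

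COR15A and COR15B, whose proteins protect chloroplast membranes in the cold, and M17, one of a pair of seed LEA genes found in the cabbage family, had WT replicate 3 at the other end of the WT arrays. M17 had 3.47, 3.06 and 2.83 in TOC1-ox, against 6.94, 8.35 and 5.43 in WT, a difference of -3.79 ± 0.77 (limma, adjusted p = 0.0973). The WT SDs of M17, COR15A and COR15B were 1.46, 1.68 and 1.36, with WT replicate 3 the lowest WT array in each. COR15A and COR15B differed by -4.53 and -3.80 (limma, adjusted p = 0.1 and 0.0826). WT replicate 3 was the highest WT array in 7 and the lowest in 8 of the 18 other LEA genes that reached 4 in a group. Its high values were thus shared by some LEA genes and not by others. Over all probe sets it was the highest WT array at 26.3% and the lowest at 54.8%, so a low WT replicate 3 is common on these arrays.

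**Figure D4:**
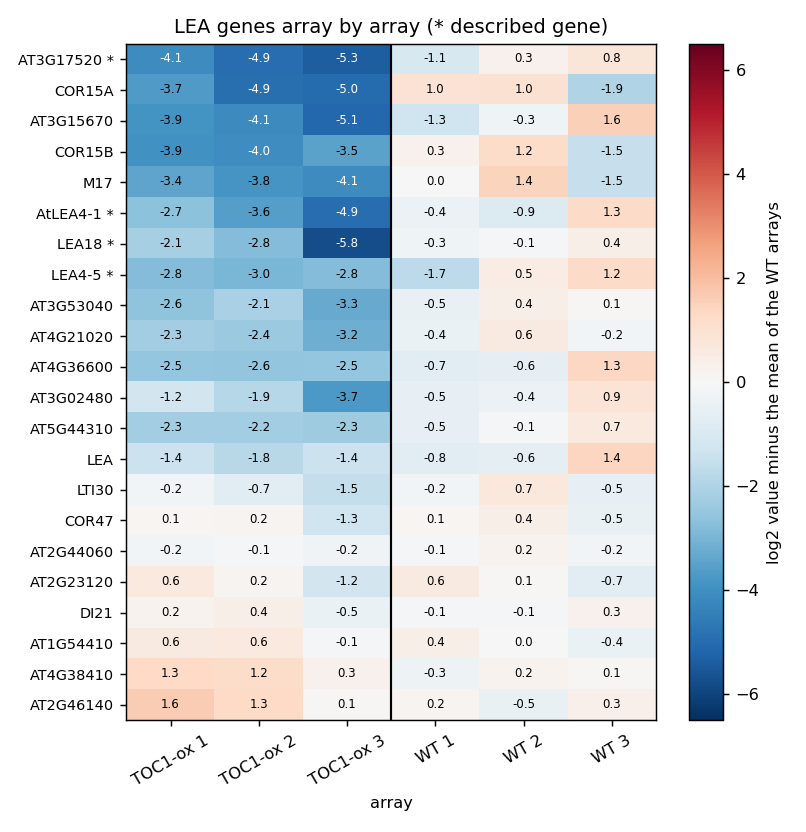
Log2 value minus the WT mean (colour and printed number) of the 22 LEA genes that reached a mean of 4 in a group, 1 row per gene and 1 column per array, TOC1-ox arrays left of WT arrays. The 4 described genes carry an asterisk. WT replicate 3 is above the WT mean in them and in AT3G15670, AT4G36600 and AT3G02480, and below it in COR15A, COR15B and M17.

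Dehydrins, the LEA proteins with lysine-rich repeats, did not pass in any of 6 measured genes. The dehydrin gene named LEA (AT2G21490) differed by -1.53 ± 0.63, with WT values of 3.62, 3.75 and 5.75 (limma, adjusted p = 0.331). LTI30 and COR47, both induced by cold, differed by -0.81 and -0.33, and AT1G54410 by 0.37 (limma, adjusted p = 0.512, 0.863 and 0.683). AT4G38410 was the 1 measured LEA gene with all TOC1-ox values above all WT values (9.27% of all probe sets showed this), at 6.70, 6.62 and 5.72 in TOC1-ox against 5.11, 5.66 and 5.49 in WT, a difference of 0.93 ± 0.32 without a call (limma, adjusted p = 0.254). AT4G39130 was dim in both groups. In the LEA_2 family AT2G46140 differed by 1.01 and AT2G44060 by -0.18 (limma, adjusted p = 0.389 and 0.567), and the drought-induced DI21 of the LEA_3 family by 0.05 (adjusted p = 0.971). AT2G23120 of the PvLEA18 family differed by -0.13 (adjusted p = 0.966).

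The other 12 LEA genes that were dim in both groups differed by -0.41 to 0.02. They were AT3G53770 of LEA_3, AT1G72100, AT2G03740, AT2G03850, AT2G18340, AT2G42560 and AT4G13230 of LEA_4, AT3G22490 and AT5G27980 of the seed maturation protein family, M10, AT2G23110 and AT2G33690.

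Some transcripts of seed storage and oil body proteins, a list of markers of seed material, were lower in TOC1-ox as the 4 genes were. This list too was drawn up with earlier results of these data known. Of the 24 listed genes 11 could be measured, and 4 were called lower and 0 higher by limma (adjusted p under 0.05), against 0.703% lower and 1.08% higher over all probe sets. The other 7 did not pass, and 3 of them overlapped between the groups. Without WT replicate 2, TOC1-ox replicate 1 or TOC1-ox replicate 2, 0 were called, without WT replicate 1 only AT2G25890, 3 genes without WT replicate 3, and without TOC1-ox replicate 3 the same 4. Quantile normalization left 2 calls and a robust prior 3. Their summed level on the linear scale was 93.1 to 281 in TOC1-ox and 687 to 1420 in WT. It was lowest in TOC1-ox replicate 3 and highest in WT replicate 3, but the rank of WT replicate 3 rested on the storage globulin gene PAP85. Without PAP85 the sums were 87.7 to 168 in TOC1-ox, lowest in replicate 3, and 564, 738 and 728 in WT replicates 1 to 3. The sums add levels of probe sets that bind differently and are read only between arrays. The oleosin gene OLEO3, the oleosin-type AT3G18570 and the cupin gene AT4G36700 were dim in both groups. The part of seed material in the LEA result was not tested, and in whole seedlings fewer cells that hold a transcript and less of it per cell cannot be told apart.

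Named by likeness over the 6 arrays, the transcripts closest to the mean profile of the 4 genes were AT1G04560, AT3G15670, AT1G22910, AT5G23460 and AT3G01810. The measure was Pearson's r with the mean of the standardised profiles, over 7780 genes with a mean of at least 4, and it was 0.996 for AT1G04560 and 0.991, 0.990, 0.988 and 0.986 for the others in that order. The 6 points share the split into groups, and 142 genes reached 0.9, so these values only order the genes. AT1G04560, which encodes a membrane protein of the AWPM-19 type, had 4.07, 3.14 and 1.81 in TOC1-ox, against 7.07, 7.41 and 9.15 in WT. It ran in the array order of AT3G17520, with WT replicate 3 highest and TOC1-ox replicate 3 lowest. AT3G15670 is the LEA_4 gene described above. The remaining genes differed in size: AT1G22910 differed by -0.31, AT5G23460 by -1.88 and AT3G01810 by -1.09 on the log2 scale. Of the 4 genes themselves, AT3G17520 followed the mean profile closest (0.988) and LEA4-5 least (0.925). Each of the 4 is part of that mean profile, which raises its r, so these values are not comparable with those of the other genes.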

How the data were processed

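The deposited values are log2 values, 1 for each of 22810 probe sets on each of 6 arrays. Per the submitters' processing notes the authors used GCRMA and limma, of versions not given in the sources used here. By its design GCRMA corrects background by probe sequence and normalizes by quantiles, which compresses differences of dim transcripts. Groups and replicate numbers come from the sample titles. After 64 control probe sets were left out, TOC1-ox minus WT was fitted over 22746 probe sets with limma 3.58.1 in R 4.3.3 (default prior, 3 arrays per group, no covariate) with Benjamini-Hochberg adjustment over all of them. The procedure was tested on simulated data. Gene names came from the platform annotation and were updated by gene identifier from the TAIR10.1 gene table, and the probe set with the highest mean stood for a gene. Coordinates are left out because the array's genome build is not stated.

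The 4 genes and all gene lists were chosen with earlier results of these data known. Named genes are the 4, every measured LEA gene, up to 4 genes of each other list, and the 5 of most like pattern. No gene of the lists of ABA and drought effectors outside the LEA family or of ABA synthesis, breakdown and signalling could be measured under a name. Promoter and protein sequences were planned and are not analysed here. Errors are SDs or limma's standard errors. The number of arrays limits the precision. Figures were drawn with matplotlib 3.10.9.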

Additional observations from a re-analysis of the deposited data

How the results depend on the processing

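The differences of all 4 LEA genes kept their sign in every setting in which they were computed: quantile normalization, centring, array weights, the replicate block, the arrays numbered 3 as a batch, averaging over the probe sets of a gene, the arrays numbered 1 and 2 only, and each array left out. With groups that do not overlap, that sign is fixed when arrays are left out or weighted. The replicate block and the batch term leave the differences unchanged in this balanced design, and each gene had 1 probe set to average. Only quantile normalization and centring could have changed the sign. The median over the 4 genes was -4.29 to -3.02 with 1 array left out, and it moved to -2.40 with the arrays numbered 1 and 2 only. With array weights it was -2.82. The lowest weights went to WT replicate 3 (0.14) and TOC1-ox replicate 3 (0.30), against 0.82 to 4.41 for the other arrays. With 1 array left out, the WT SD ran from 0.55 to 2.07 for LEA4-5, 0.37 to 1.52 for AtLEA4-1, 0.10 to 0.47 for LEA18 and 0.36 to 1.31 for AT3G17520. Over all probe sets limma called 405. It called 248 after quantile normalization, 262 with a robust prior, 852 with a filter at a mean of 4 and 641 with one at 6, 6182 with array weights and 2201 with the arrays numbered 1 and 2 only. With 1 array left out the count was 8 to 2955. Of the 31 other LEA genes, 2 were called. The count was 8 with the filter at 4, which left 17 of these genes. It was 5 with a variance trend, 14 with array weights, 4 with the arrays numbered 1 and 2 only, and 0 to 5 with 1 array left out. These calls were lower in TOC1-ox, except in 2 settings. Array weights gave 12 lower and 2 higher, and leaving out TOC1-ox replicate 3 gave 3 lower and 2 higher. Over all probe sets, 852 of 14526 were called with the filter at 4 and 6182 of 22746 with array weights. The count of LEA genes was 0 after quantile normalization and with a robust prior, where 11 and 10 were lower at an unadjusted p under 0.05 by limma. Under the replicate block, 0 probe sets and 0 LEA genes passed by limma (4317 probe sets, and 8 LEA genes lower and 1 higher, at an unadjusted p under 0.05), in a fit with fewer residual degrees of freedom. The numbers are not known to pair the arrays: deviations from the group means of same-numbered arrays correlated at 0.299, -0.0119 and 0.0816 across probe sets for replicates 1, 2 and 3. The causes of these changes were not tested. With TOC1-ox signal near the bottom of the scale, the size of the AT3G17520 difference is not well defined.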

Other observations

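The seed storage and oil body genes measured beside the LEA genes did not share one order of WT arrays. AT3G01570, an oleosin-family gene, had log2 values of 2.11, 2.11 and 2.12 in TOC1-ox, against 2.24, 4.30 and 7.22 in WT, so that its whole difference of -2.47 lay in WT replicates 2 and 3 (limma, adjusted p = 0.445). PAP85, a storage globulin of the vicilin type, had 6.83, 5.99 and 2.43 in TOC1-ox, against 6.95, 6.25 and 9.44 in WT. Its groups overlapped, and it had WT replicate 3 highest and TOC1-ox replicate 3 lowest, as AtLEA4-1, LEA18 and AT3G17520 did (limma, adjusted p = 0.521). DELTA-VPE, a seed coat protease gene, and the cupin gene AT2G28490 fell and had WT replicate 3 as the lowest WT array, at 5.81 and 6.09 (limma, adjusted p = 0.0421 and 0.0337). The oleosin-type AT2G25890 and the dehydrogenase-family AT1G54870 fell with WT replicate 3 highest, at 6.69 and 6.97 (limma, adjusted p = 0.0127 and 0.0385). The 4 calls depended on single arrays and on the processing: none passed without WT replicate 2, TOC1-ox replicate 1 or TOC1-ox replicate 2, only AT2G25890 passed without WT replicate 1, and DELTA-VPE did not pass without WT replicate 3. DELTA-VPE and AT1G54870 did not pass after quantile normalization, nor did DELTA-VPE with a robust prior. EEL, a bZIP factor known to act on LEA genes of the maturing seed and the only measured one of 16 listed seed maturation and ABA factors, had 5.28, 5.28 and 3.99 in TOC1-ox, against 3.92, 4.13 and 4.65 in WT (limma, adjusted p = 0.595).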
